A study of Homo sapiens with 2 samples.

Results

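The cells described here are the Nalm-6 cells with the highest summed level of 9 genes, SPINK4, TTN, CLEC14A, COL9A3, ID4, ARPP21, ARID5B, ZNF608 and PNRC1. Nalm-6 is an established human leukemia line of B-cell precursor type. In each library, cells with at least 1000 detected genes and at most 10% mitochondrial UMIs (unique molecular identifiers, 1 per captured transcript) were kept. The UMIs of the 9 genes were divided by all UMIs of a cell, and the top 10% of kept cells were taken as high-scoring. This gave 187 of 1870 kept cells (2203 barcodes) in the LUC control library and 227 of 2267 (2503 barcodes) in the ETV6-RUNX1 library, or 414 of 4137 cells. Both libraries came from Nalm-6 cells carrying a Tet-On inducible construct, and both were given 500 ng/ml doxycycline for 24 h. The construct encoded luciferase (LUC) in the control and ETV6-RUNX1 (TEL-AML1), a fusion transcription factor of childhood leukemia, in the other. Dead cells were depleted with beads before droplet capture on the 10X system. There was 1 library per construct, so no difference has a replicate check and no test was made. Where a pair of values is given, LUC control comes first and ETV6-RUNX1 second.

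B-cell precursors divide rapidly while they carry the pre-B cell receptor, and then leave the cycle as small resting cells that recombine their light chain genes. FOXO transcription factors are active in the resting stage, where they raise RAG1 and RAG2, which encode the recombinase, and genes that restrain growth. In the dividing stage MYC raises ribosome biogenesis, and cyclins and mitotic kinases carry cells through mitosis. The 9 scored genes are of mixed kinds. ARPP21 encodes an RNA-binding phosphoprotein, ID4 an inhibitor of helix-loop-helix transcription factors, ARID5B a DNA-binding protein whose inherited variants are linked to childhood leukemia, ZNF608 a zinc finger protein and PNRC1 a nuclear receptor coregulator. SPINK4, a secreted protease inhibitor of goblet cells, CLEC14A, an endothelial membrane protein, TTN, the muscle protein titin, and COL9A3, a chain of cartilage collagen, are best known from other tissues.

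The promoters printed here belong to genes at both ends of the comparison of high-scoring with remaining cells. C10orf10 (DEPP1 in RefSeq), a known FOXO target, had the highest ratio, and CDC20, PLK1 and HMMR, genes of mitosis, were among the 12 lowest. The 4 genes printed were chosen by hand, and each holds the letters marked in it. Each sequence is the 250 bases before the start in the RefSeq table (build GRCh38.p14), 5′ to 3′ on the gene's strand. Both strands were searched. In C10orf10 capitals mark the FOXO core GTAAACA. In the mitotic genes capitals mark the letters of the cell-cycle homology element, which read TTTGAA on one strand and TTCAAA on the opposite one.
C10orf10 (chr10:44978810-44979059, minus strand): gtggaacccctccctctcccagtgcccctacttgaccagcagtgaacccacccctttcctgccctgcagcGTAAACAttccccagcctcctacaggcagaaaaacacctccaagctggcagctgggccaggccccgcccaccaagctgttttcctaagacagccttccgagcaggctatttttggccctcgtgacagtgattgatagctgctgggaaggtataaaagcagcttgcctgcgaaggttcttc
CDC20 (chr1:43358731-43358980, plus strand): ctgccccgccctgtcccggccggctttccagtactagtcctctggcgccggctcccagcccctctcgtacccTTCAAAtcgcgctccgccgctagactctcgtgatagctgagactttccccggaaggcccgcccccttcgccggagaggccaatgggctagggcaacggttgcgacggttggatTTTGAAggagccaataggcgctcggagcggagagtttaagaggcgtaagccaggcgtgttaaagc
PLK1 (chr16:23678639-23678888, plus strand): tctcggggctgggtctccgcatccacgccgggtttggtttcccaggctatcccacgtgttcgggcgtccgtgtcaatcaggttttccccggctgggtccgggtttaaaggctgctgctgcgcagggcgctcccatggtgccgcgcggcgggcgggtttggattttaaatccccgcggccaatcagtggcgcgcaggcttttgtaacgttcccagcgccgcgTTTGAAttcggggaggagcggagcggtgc
HMMR (chr5:163460382-163460631, plus strand): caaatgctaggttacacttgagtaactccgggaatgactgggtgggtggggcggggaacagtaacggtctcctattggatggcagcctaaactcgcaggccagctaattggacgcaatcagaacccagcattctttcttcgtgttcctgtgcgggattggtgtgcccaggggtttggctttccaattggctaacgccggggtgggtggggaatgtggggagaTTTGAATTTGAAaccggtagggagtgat
In C10orf10 the FOXO letters begin 180 bases before the start. The other motif begins 178 and 65 bases before the start in CDC20, 29 in PLK1, and 28 and 22 in HMMR. Of the 33 genes searched, which were the 9 scored, the 12 highest and the 12 lowest, 28 were matched in the table; AGAP1, ANGPT2, ABCG1, BIRC5 and COL9A3 were not. The FOXO letters were in 1 of 9 windows of the highest genes and 0 of 11 of the lowest, against 2.98% of all 27305 windows. TTTGAA or TTCAAA was in 7 of 11 windows of the lowest genes, 2 of 9 of the highest and 0 of 8 of the scored genes, against 13.6% of all. CCNB1 and CCNA2 were among the lowest genes without these letters. The CCAAT box (CCAAT or ATTGG) was in 9 of 11, 3 of 9 and 5 of 8 windows, against 33.04%. A window may hold more than 1 of these motifs, which are matches of letters, and binding was not measured.

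The score placed cells on a range, with no gap at the limit between high-scoring and remaining cells. Whether the high-scoring cells hold a separate type was not tested. The lowest high-scoring cell stood at 1019.6 score UMIs per 1000000 UMIs of the cell (counts scaled so are called CPM) and the highest remaining cell at 1017.0 in LUC control, and at 1133.2 and 1132.2 in ETV6-RUNX1. Within 10% of that limit lay 36 and 52 high-scoring and 62 and 74 remaining cells. Median scores were 1334 and 1442 CPM in high-scoring and 482 and 525 in remaining cells, on a median of 21 and 19 against 11 and 10 score UMIs per cell.
High-scoring cells were shallower, with a median of 14489 and 11338 UMIs against 23219 and 19786. Among the cells with the fewest UMIs (the lowest quartile), 26.1% (22.1 to 30.3) and 23.6% (20.2 to 27.4) were high-scoring, with exact 95% intervals in brackets, and in the highest quartile 1.499% (0.605 to 3.06) and 2.12% (1.1 to 3.67). Mitochondrial UMIs had a median of 4.898 and 5.11% in high-scoring and 4.32 and 4.46% in remaining cells. Counts at equal depth are given for all genes, the 12 highest and lowest, and the main lists. The libraries shared 7 barcodes among kept cells, and 0 and 1 high-scoring cells were called doublets, against 16 and 13 remaining cells.

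COL9A3 gave the most UMIs to the score, 41.5% and 36.6% of those of high-scoring cells, more than ARPP21, SPINK4 or ID4. It was at 593 against 177 and 579 against 183 CPM in high-scoring against remaining cells. ARPP21 came next, at 232 against 92.5 and 392 against 127 CPM. COL9A3 alone made up over 50% of the score UMIs in 61 and 54 high-scoring cells, and ARPP21 in 1 and 19. These levels follow from how the cells were chosen and are a description only.
SPINK4 was at 126 against 31.4 and 98.7 against 26.4 CPM, TTN at 120.2 against 27.6 and 94.8 against 29.05, and CLEC14A at 121 against 44.9 and 87.1 against 30.6. The 4 others were ID4 (61.2 against 25.2 and 68.4 against 25.5 CPM), ARID5B (48.9 against 26.4 and 78.2 against 34.8 CPM), ZNF608 (65.5 against 25.2 and 84.9 against 29.97 CPM) and PNRC1 (62.6 against 38.4 and 99.7 against 40.2 CPM). Over the 9 genes and both libraries the folds ran from 1.63 to 4.35.

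**Figure D1:**
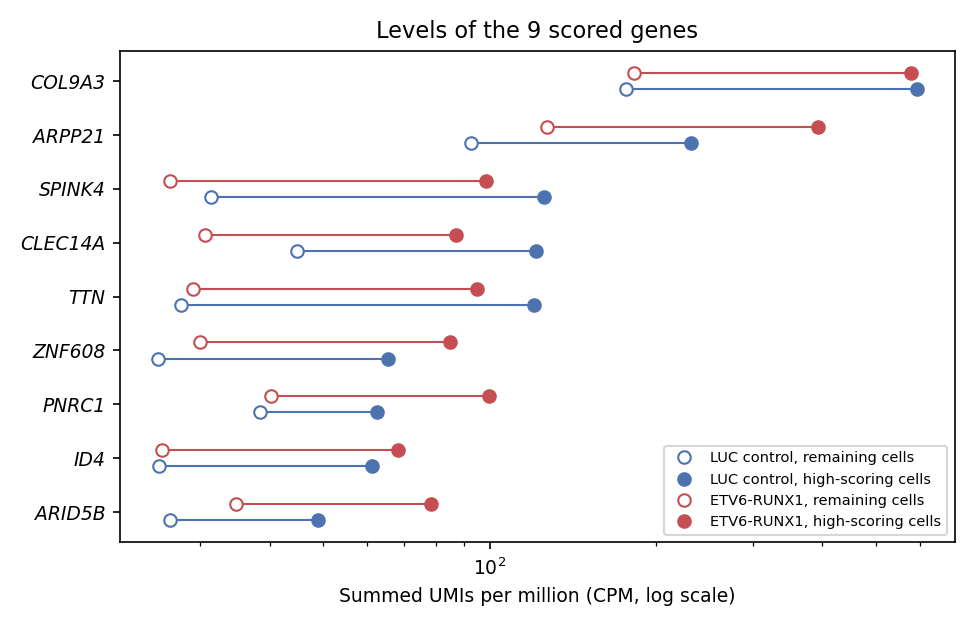
Levels of the 9 scored genes as summed CPM (log axis), filled for high-scoring and open for remaining cells of each library. COL9A3, at 593 and 579 CPM in high-scoring cells, lies above the other scored genes, and all pairs differ in the direction set by the choice.

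Each scored gene was also left out in turn, the top 10% rechosen on the other 8, and the left-out gene compared. All 9 were higher in the rechosen cells of both libraries, and 7 of 9 at least 1.5-fold in both. SPINK4 was at 83.4 against 34.3 and 75.1 against 28.1 CPM, with log2 ratios (95% intervals) of 1.28 (1.08 to 1.49) and 1.42 (1.199 to 1.63). ARPP21 was at 189 against 95.3 and 275 against 135 CPM, with log2 ratios of 0.98 (0.85 to 1.12) and 1.03 (0.92 to 1.13). ID4 was at 46.9 against 26.2 and 54.6 against 26.5 CPM, with log2 ratios of 0.84 (0.57 to 1.103) and 1.04 (0.79 to 1.29).
The 9 genes were picked with earlier results of these libraries known, so these values are a description only. They were not taken again at equal depth. The 3 genes above were each higher in cells chosen without them. The 2 that missed 1.5-fold in LUC control were ARID5B, with log2 ratios of 0.44 (0.13 to 0.74) and 0.86 (0.64 to 1.09), and PNRC1, with 0.46 (0.21 to 0.71) and 1.09 (0.89 to 1.28). Cell by cell the genes were weakly related: over 36 pairs in cells thinned to 8700 UMIs, Spearman's rho ran from -0.029 to 0.11 and from 0.0027 to 0.099. The highest was of ARPP21 with COL9A3, and these values come from sparse counts of cells that share a library.

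Outside the 9 genes, C10orf10, AGAP1 and PDGFRA were among the genes with the highest ratios of high-scoring over remaining cells, and CDC20, CCNB1 and other genes of mitosis among the lowest. Of 5640 genes at 10 CPM or more over all kept cells of each library, 89 (1.58%) were at least 1.5-fold higher than in remaining cells in both libraries and 78 (1.38%) at least 1.5-fold lower. These 2 shares are the background for the counts of called genes in each list below. In LUC control 150 (2.66%) were higher and 192 (3.4%) lower, and in ETV6-RUNX1 206 (3.65%) and 266 (4.72%). The shared genes were 59.3% and 43.2% of each library's higher genes, and 40.6% and 29.3% of its lower genes.
Scaling moved the split of 89 higher and 78 lower genes, to 70 and 128 with TMM and to 115 and 54 with ribosomal protein and mitochondrial genes out of the totals. With the score on cells thinned to equal depth there were 33 higher and 5 lower genes, and with remaining cells weighted to like depth 63 and 42.

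C10orf10 (ENSG00000165507), whose protein is induced by FOXO factors, had the highest ratio. It was at 36.6 against 8.18 and 46.5 against 12.3 CPM in high-scoring against remaining cells, with log2 ratios of 2.16 (95% interval 1.82 to 2.49) and 1.92 (1.63 to 2.19). AGAP1, a GTPase-activating protein of membrane traffic, was at 56.5 against 17.7 and 41.2 against 16.96 CPM. PDGFRA, a receptor tyrosine kinase, was the most abundant of the 12 highest, at 142 against 61.2 and 143 against 62.99 CPM, with log2 ratios of 1.22 (95% interval 1.06 to 1.37) and 1.18 (1.03 to 1.33).
Genes of signalling and lipids were among the 12. ANGPT2, a ligand of the TIE2 receptor, was at 32.6 against 13.95 and 28.9 against 12.3 CPM, and ORAI3, a calcium channel subunit, at 24.98 against 12.03 and 27.8 against 14.5. TM7SF2, a sterol reductase, was at 24.98 against 9.58 and 25.02 against 10.4 CPM, and ABCG1, a cholesterol exporter, at 20.6 against 9.73 and 20.1 against 10.02. HCST, a signalling adaptor, was at 23.9 against 9.78 and 22.6 against 9.42 CPM, and SMOC2, a secreted matrix-associated protein, at 23.5 against 10.2 and 32.4 against 12.4.
MXD4, a MAX partner that opposes MYC, was also among them. It was at 23.5 against 9.83 and 29.3 against 12.6 CPM, and YPEL5 at 30.8 against 15.9 and 54.6 against 20.97. HIST1H2BK, a histone H2B gene with near-identical copies that could share its reads, was at 30.04 against 15.2 and 35.6 against 16.2 CPM. With remaining cells weighted to like depth 12 of these 12 were still at least 1.5-fold higher in both libraries, and with the score on thinned cells 11, HIST1H2BK falling short in LUC control, 10 of them also at or above the floor of 10 CPM. C10orf10 was with the thinned score at log2 ratios of 1.36 and 1.73.

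At the other end, CDC20, an activator of the anaphase-promoting complex, was at 34.03 against 79.2 and 27.5 against 68.5 CPM, with log2 ratios of -1.22 (95% interval -1.53 to -0.92) and -1.32 (-1.66 to -0.99). CCNB1, the mitotic cyclin B, was at 29.7 against 65.9 and 23.3 against 61.8 CPM, and CCNA2, cyclin A, at 22.1 against 47.5 and 21.5 against 43.3. PLK1, a mitotic kinase, was at 19.5 against 37.7 and 16.6 against 36.5 CPM, and BIRC5, survivin of the chromosomal passenger complex, at 72.8 against 161 and 83.9 against 157. All of these act in mitosis or the approach to it.
Spindle and microtubule genes made up much of the rest. KIF4A, a kinesin, was at 7.24 against 14.2 and 6.696 against 14.3 CPM, DLGAP5 at 11.2 against 24.6 and 11.98 against 22.9, and HMMR at 25.7 against 48.4 and 23.6 against 48.5. The tubulins TUBB4B (149 against 293 and 130.0 against 261 CPM) and TUBA1C (79.3 against 145 and 64.8 against 122 CPM) belong to families of near-identical genes, and their reads are less certain. PFAS, of purine synthesis, was at 7.24 against 13.3 and 7.401 against 13.6 CPM, and FANCD2, of DNA crosslink repair, at 10.1 against 21.3 and 10.9 against 19.97.
Fewer of these genes than of the higher ones held at equal depth. With remaining cells weighted to like depth 9 of the 12 were at least 1.5-fold lower in both libraries, and with the score on thinned cells 2.

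**Figure D2:**
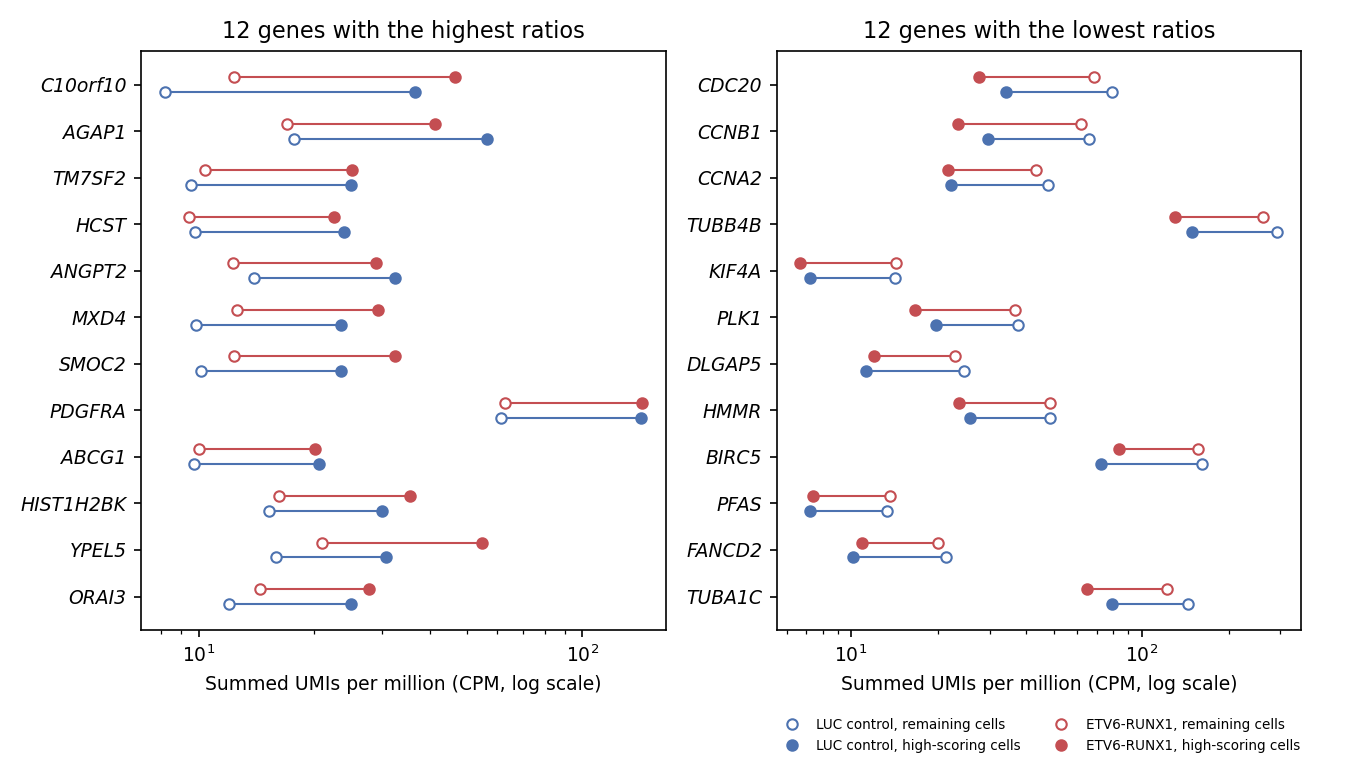
Levels of the 12 genes with the highest and the 12 with the lowest ratios, as summed CPM (log axis), filled for high-scoring and open for remaining cells of each library. C10orf10 stands at 36.6 and 46.5 CPM in high-scoring cells, and CDC20 at 34.03 and 27.5.

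Of the cell-cycle lists, those of G2/M and S phase had medians below 0 and that of G1 regulators had not. Of 50 measured G2/M genes, 15 were at least 1.5-fold lower in both libraries, 0 higher, and 49 below 0 in both. Their median log2 ratios were -0.57 and -0.53, against -0.049 and -0.038 over all 5640 genes. At equal depth fewer of these 50 were 1.5-fold lower in both libraries, 6 with remaining cells weighted to like depth and 1 with the thinned score, with medians of -0.41 and -0.32 and -0.29 and -0.25. AURKB, a kinase of the chromosomal passenger complex, was at 34.03 against 87.2 and 46.2 against 80.8 CPM. S-phase genes differed less: CDC45, part of the replicative helicase, was the 1 of 36 called, at 23.9 against 40.3 and 20.1 against 37.3 CPM, and the medians were -0.18 and -0.35.
Of 16 histone genes, 3 were lower, HIST1H4C, HIST2H2AC and HIST1H2AH, and 1 higher, HIST1H2BK. HIST1H4C, a histone H4 gene, was at 2382 against 4382 and 2580.5 against 4261 CPM. TFDP2, a partner of E2F factors, was the 1 of 15 G1 cyclins and cyclin-dependent kinase inhibitors or regulators called, higher at 90.5 against 56.7 and 106 against 66.4 CPM, with list medians of 0.032 and 0.15. CDKN1A, the inhibitor p21, was at 73.8 against 43.4 and 64.5 against 46.1 CPM, with log2 ratios of 0.77 and 0.49.

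Phase calls ran with these genes, which they are made from. In cells thinned to 8700 UMIs, 47.97% (39.7 to 56.3) and 52.3% (44.1 to 60.3) of high-scoring cells were called G1, against 13.2% (11.6 to 14.99) and 15.3% (13.7 to 17.01) of remaining cells. G2/M calls were 17.6% (11.8 to 24.7) and 24.5% (17.97 to 32.1) against 48.4% (45.9 to 50.8) and 46.8% (44.5 to 49.05). S calls were 34.5% (26.8 to 42.7) and 23.2% (16.8 to 30.7) against 38.4% (36.04 to 40.8) and 37.9% (35.7 to 40.2), so the S interval of LUC control overlaps that of the remaining cells and that of ETV6-RUNX1 does not.
Thinning left out 20.9% and 31.7% of high-scoring and 2.67% and 7.45% of remaining cells. Values within a phase and at equal phase weight are without these cells too. Without it, 47.1% and 50.7% of high-scoring cells were called G1.
The 12 highest genes were mostly higher within each phase too. Those below 0 within S were C10orf10 in LUC control (-0.17) and ORAI3 in ETV6-RUNX1 (-0.21). HIST1H2BK was below 0 within G2/M in LUC control (-0.14). Their median log2 ratios were 1.34 and 1.26 in cells called G1, with 12 of 12 above 0 in both libraries, 0.98 and 0.91 in cells called S, with 10 of 12, and 0.79 and 0.82 in cells called G2/M, with 11 of 12. C10orf10 was at 2.66 (2.11 to 3.22) and 2.17 (1.702 to 2.63) within G1, at -0.17 (-1.41 to 0.85) and 0.4999 (-0.43 to 1.304) within S and at 0.93 (-0.41 to 2.01) and 0.87 (-0.15 to 1.75) within G2/M, and the S and G2/M intervals took in 0. The G2/M intervals of AGAP1, TM7SF2, HCST, ANGPT2, MXD4 and ABCG1 took in 0 in both libraries too, and so did the S intervals of TM7SF2 and YPEL5. PDGFRA was at 1.31 (1.02 to 1.599) and 1.29 (0.98 to 1.604), 0.99 (0.71 to 1.26) and 1.17 (0.85 to 1.48) and 0.95 (0.55 to 1.33) and 1.41 (1.101 to 1.699), all above 0. The 12 lowest genes had medians of -2.01 and -2.28 within G1 and -0.59 and -0.53 within S, but -0.11 and -0.23 within G2/M, where 6 of 12 were below 0 in both.

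Clustering of all kept cells without the 9 genes gave 5 clusters, and 1 of them, cluster 4, held 80 (42.8%) and 116 (51.1%) of the high-scoring cells. It held 2.73% and 5.49% of remaining cells. High-scoring cells were 63.5% (54.4 to 71.9) and 50.9% (44.2 to 57.5) of its cells, and between 2.93% and 8.98% of the other clusters. Its cells had a median of 14726 and 12168 UMIs.
All 9 scored genes, which were kept out of the clustering, were higher in cluster 4 than in the other clusters of both libraries. Cluster 4 was singled out for its share of high-scoring cells, which these 9 genes define. Their levels in it are thus a description only. SPINK4 was at 115 against 33.8 and 87.1 against 26.96 CPM (log2 ratios 1.77 and 1.69). COL9A3 was at 444 against 192 and 414 against 193 CPM (log2 ratios 1.21 and 1.101), and ID4 at 51.6 against 26.4 and 58.7 against 26.1 CPM (log2 ratios 0.96 and 1.17).
High-scoring cells inside and outside cluster 4 differed in phase and in C10orf10. Inside it 91.9% (82.2 to 97.3) and 93.7% (85.8 to 97.9) were called G1, and outside it 16.3% (9.196 to 25.8) and 9.21% (3.78 to 18.1). C10orf10 was at 79.3 and 79.1 CPM inside and 11.0 and 16.8 outside, against 56.6 and 42.9 in remaining cells inside and 7.104 and 11.03 in remaining cells outside. The remaining cells of cluster 4 thus had more C10orf10 than the high-scoring cells outside it. PDGFRA was at 148 and 120.5 CPM inside and 139 and 163 outside, against 106 and 95.9 in remaining cells inside and 60.2 and 61.6 in remaining cells outside. These cells were clustered on the same genes, and the values only describe them.

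**Figure D3:**
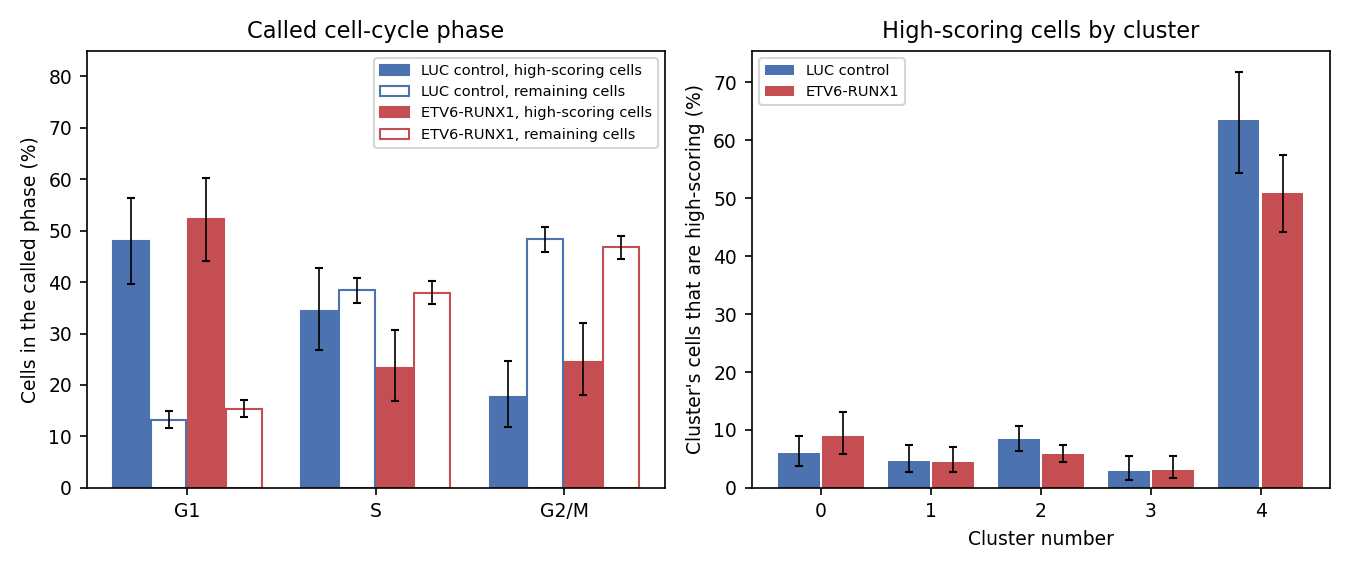
Left, share of cells called G1, S or G2/M after thinning (filled bars, high-scoring; open bars, remaining). Right, share of each cluster's cells that were high-scoring. Black lines are exact 95% intervals; G1 holds 47.97% and 52.3% of high-scoring cells, and cluster 4 stands at 63.5% and 50.9%.

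Among growth-restraining genes, the list of FOXO targets and quiescence genes held 32, of which 16 were measured. Of these 16, 5 were at least 1.5-fold higher in both libraries and 0 lower, against 1.58% and 1.38% of all genes. The list's medians were 0.16 and 0.51. BTG2, an antiproliferative protein, was at 18.1 against 9.85 and 31.01 against 10.1 CPM, with log2 ratios of 0.88 (95% interval 0.42 to 1.305) and 1.61 (1.26 to 1.95). PDCD4, an inhibitor of translation, was at 22.1 against 11.7 and 27.5 against 13.2 CPM, and FOXP1, a forkhead factor of B-cell development, at 59.0 against 35.3 and 68.7 against 37.7. MXD4 and YPEL5 were the other two. At equal depth the count was 4 with remaining cells weighted to like depth and 4 with the thinned score, with medians of 0.197 and 0.42 and 0.22 and 0.31.
Of 13 p53 targets, 2 were higher: BTG2 again, and ZMAT3, an RNA-binding protein, at 21.7 against 9.33 and 19.7 against 10.4 CPM. Of 41 chromatin regulators 2 were higher, the histone demethylase KDM5B (36.2 against 18.6 and 46.2 against 23.99 CPM) and the remodeller CHD7 (87.6 against 51.6 and 97.98 against 61.4 CPM). Over all genes the share higher in both libraries was 1.58%.

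Most B-lineage transcription factors had ratios above 0, 23 of 25 in both libraries against 1749 of all 5640 genes, and 4 at least 1.5-fold higher, against 1.58% of all genes. Their medians were 0.31 and 0.42, and the count at equal depth was 5 with remaining cells weighted to like depth and 3 with the thinned score. TCF4, the E protein E2-2, was at 333 against 189 and 362 against 176 CPM, with log2 ratios of 0.82 (95% interval 0.72 to 0.92) and 1.04 (0.94 to 1.13). BACH2, a repressor needed for B-cell development, was at 86.9 against 45.4 and 114 against 55.9 CPM, ERG, an ETS factor, at 37.3 against 19.8 and 47.6 against 20.8, and the coactivator POU2AF1 at 23.5 against 15.6 and 31.01 against 17.6. At equal phase weight the list's medians were 0.27 and 0.47.
Of 13 recombination genes, 2 were higher in both, RAG1 (26.8 against 15.9 and 40.5 against 22.7 CPM) and RAG2 (17.7 against 10.5 and 19.03 against 12.3 CPM), while the medians were 0.46 and -0.0069, on opposite sides of 0. DNTT, the terminal transferase of precursors, was at 463 against 311 and 593 against 357 CPM. MME, the antigen CD10 of early precursors, was the 1 of 12 surface antigens called, at 194 against 122 and 187 against 123 CPM. None of 19 pre-B receptor and signalling genes was called. Their medians were -0.079 and 0.033, with 8 above and 8 below 0 in both libraries. VPREB1, of the surrogate light chain, was at 1005 against 1062 and 699 against 719.8 CPM. IGLL1, its other part, was at 1412 against 1892 and 819 against 1147 CPM. LAT2 was lower too, with log2 ratios of -0.57 and -0.58. SYK (0.502 and 0.757) and BTK (0.36 and 0.705) were higher, with intervals above 0 in both libraries.
A list of ETV6-RUNX1 leukemia held 24 genes, of which 6 were measured. Of these 6, 4 were higher in both libraries, the LUC control included, against 1.58% of all genes. At equal depth 3 were higher with remaining cells weighted to like depth and 1 with the thinned score. The 4 were SOCS2, an inhibitor of cytokine signalling (83.6 against 48.1 and 98.7 against 50.8 CPM), RAG1, NRN1 (125 against 80.9 and 139.6 against 81.6 CPM) and SPTBN1, a spectrin (118 against 74.2 and 162 against 103 CPM). QPRT, of NAD synthesis, was at 30.8 against 18.6 and 43.0 against 28.4 CPM. It was the 1 called of 5 genes listed from earlier results of these libraries as raised with ETV6-RUNX1. None of 8 listed as lowered was called, but their medians were -0.46 and -0.018. Of these 8, 0 were above 0 in LUC control and 4 in ETV6-RUNX1.
A few genes of further lists were called. Of 17 adhesion and migration genes 2 were called higher, with medians of -0.052 and -0.0032, and of 6 cytokine signalling genes 2, SOCS2 and IL2RG. The share called higher over all genes was 1.58%. IL2RG, the common cytokine receptor chain, was at 20.3 against 12.2 and 20.4 against 11.02 CPM, ITGB1, an integrin chain, at 26.4 against 14.9 and 28.9 against 17.3, and RHOH, a blood-cell GTPase, at 66.6 against 41.4 and 59.2 against 36.6. SMAD1, a transducer of BMP signals, which also act on ID genes, was at 92.3 against 46.3 and 97.6 against 52.2 CPM; it was the 1 of 7 measured genes of that list called.

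Genes of growth and protein folding were lower by small steps. Of 46 measured MYC and ribosome biogenesis genes 0 were called, yet 40 were below 0 in both libraries, against 2427 of all 5640, with medians of -0.27 and -0.37. LYAR, a nucleolar protein, was at 146 against 214 and 123 against 197 CPM. Of 25 heat-shock chaperones 21 were below 0 in both, with medians of -0.39 and -0.398, and 2 were called, HSP90AA1 (1281 against 2085 and 1208 against 1965 CPM) and HSPH1 (31.1 against 57.98 and 34.5 against 56.9 CPM). At equal depth the count called lower was 1 with remaining cells weighted to like depth and 0 with the thinned score. At equal phase weight the MYC list had medians of -0.28 and -0.39 and the chaperones -0.41 and -0.37. The G2/M genes, from which phases were called, had 0.074 and 0.087. These values also leave out the cells too shallow for thinning.
The lists of glycolysis, stress response and proteasome genes had medians below 0 as well in both libraries, and that of cholesterol synthesis in LUC control alone. Of 20 genes of glycolysis and hypoxia 2 were lower, LDHA, lactate dehydrogenase A (399 against 622 and 313 against 579 CPM), and BNIP3, a mitophagy receptor (30.8 against 48.8 and 26.4 against 44.5 CPM), with medians of -0.24 and -0.31. Of 33 stress response genes SLC7A5, an amino acid transporter, was called, at 23.5 against 35.7 and 18.7 against 34.7 CPM. Of 31 proteasome subunits 29 were below 0 in both and 0 called, with medians of -0.27 and -0.25.
Of 19 cholesterol synthesis genes TM7SF2 was called higher, and the medians were -0.14 and 0.028. The 83 ribosomal protein genes had medians of 0.036 and 0.0086, and the 13 mitochondrially encoded genes 0.0897 and 0.0895. MALAT1, a nuclear-retained RNA, was at 12244 against 8624 and 13878 against 9118 CPM.

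**Figure D4:**
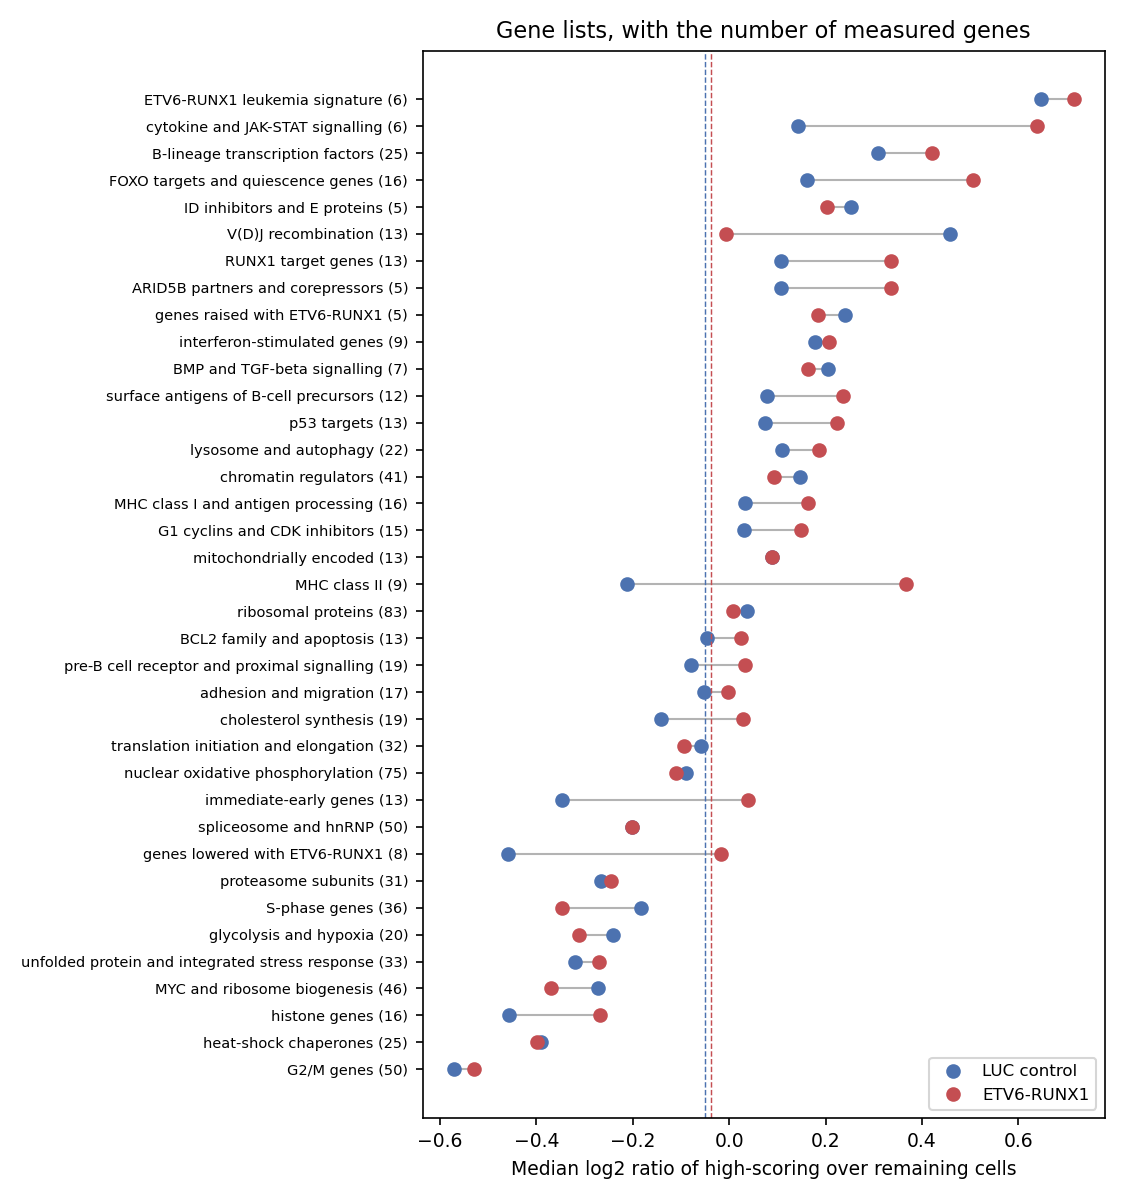
Median log2 ratio of high-scoring over remaining cells for the 37 lists with at least 5 measured genes (their number in brackets), 1 point per library; dashed lines mark the medians of all 5640 genes. G2/M genes stand lowest, at -0.57 and -0.53, and the ETV6-RUNX1 leukemia list highest, at 0.65 and 0.72.

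Along the whole score, these groups ran differently. Cells were ordered by score into 10 equal groups, the last being the high-scoring cells. The summed MYC list was at 12142, 10104 and 9298 CPM in groups 1, 9 and 10 of LUC control and at 11640, 8969 and 8121 in ETV6-RUNX1. The chaperones were at 12154, 8959 and 7628 CPM and at 11556, 7965 and 7118. Both lists thus declined among the remaining cells too.
G2/M genes instead showed no steady slope. They lay between 4915 and 5640 CPM in groups 1 to 9 of LUC control and between 4665 and 5387 in ETV6-RUNX1, and at 3567 and 3615 in group 10. Median UMIs per cell were 22306 and 19443 in group 1, 21818 and 19013 in group 8, 20875 and 15582 in group 9, and 14489 and 11338 in group 10. Groups 1 and 8 were thus of like depth, and there the MYC list differed by log2 ratios of -0.198 and -0.33 and the chaperones by -0.39 and -0.45. In ETV6-RUNX1 depth was already lower in group 9, where the G2/M genes were at their lowest of groups 1 to 9. The part of depth in the lower G2/M level of group 10 was not tested.

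**Figure D5:**
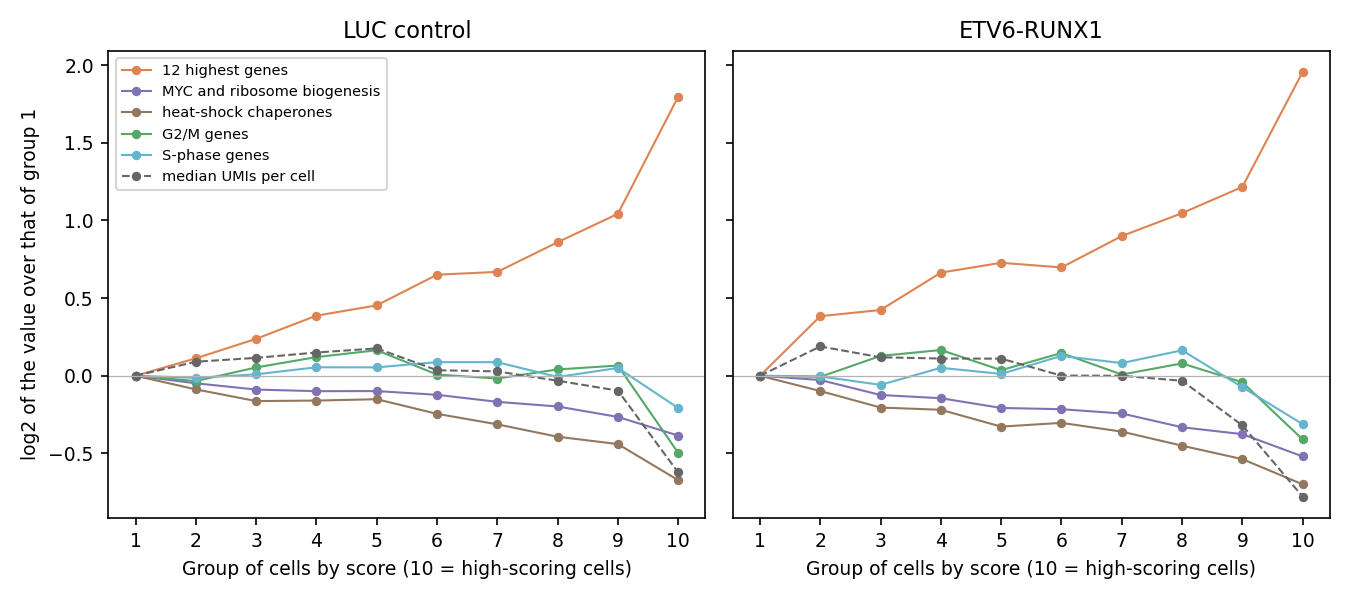
Summed gene lists and, dashed, median UMIs per cell in each of 10 groups of cells ordered by score, as log2 over group 1. MYC and chaperone lists slope down along the score, while G2/M genes are lowest at group 10 and UMIs per cell are lower from group 9 on in ETV6-RUNX1 and at group 10 in LUC control. In group 10 G2/M genes are at 3567 and 3615 CPM.

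Defining markers of T and NK, erythroid and myeloid cells were at or near 0 in the high-scoring cells. Of 15 T and NK cell markers 12 and 13 had no UMI, CD3D, CD3E and CD7 among them, and the list summed to 8.69 and 7.401 CPM in high-scoring cells against 7.48 and 5.28 in remaining cells. Of 16 erythroid and megakaryocyte markers 14 were at 0 in each library, and the list summed to 0.724 and 0.705 CPM in high-scoring cells against 0.70 and 0.365 in remaining cells. Of 15 myeloid markers 10 and 12 were at 0, CD14 and S100A8 among them. CST3, cystatin C, was the 1 myeloid marker measured, at 15.9 against 9.70 and 23.6 against 10.7 CPM, and the list summed to 23.2 and 35.2 CPM in high-scoring cells against 15.98 and 17.9 in remaining cells.
Markers of the tissues in which scored genes are best known were mostly missing too. Of 13 endothelial markers 8 were at 0 in each library, VWF, KDR and CLDN5 among them. The list summed to 58.6 and 66.3 CPM in high-scoring cells against 46.3 and 45.3 in remaining cells; ERG, given above, was called higher and ESAM lower, at 9.41 against 16.2 and 5.99 against 14.4 CPM. Of 22 muscle genes 14 were at 0, ACTA1 and DES among them, and the list summed to 29.7 and 21.9 CPM in high-scoring cells against 26.6 and 21.3 in remaining cells. None of 27 collagen and matrix genes, COL9A3 aside, reached 10 CPM, with a sum of 24.98 and 17.97 CPM in high-scoring cells against 18.98 and 17.3 in remaining cells.
Of 18 epithelial and fibroblast markers 13 were at 0, EPCAM and DCN among them, and the list, mostly VIM and PDGFRA, summed to 730.1 and 567 CPM in high-scoring cells against 711 and 575 in remaining cells. Stem cell markers were mostly at 0, 10 of 15 in each library, CD34 having 5 and 1 UMIs, and the list, mostly MSI2, summed to 131 and 121 CPM in high-scoring cells against 118 and 111 in remaining cells.
Markers of mature B and plasma cells were not at 0, only 2 of 12 having no UMI in each library. The list summed to 693 and 608 CPM in high-scoring cells against 624 and 479 in remaining cells, mostly MZB1 (374 against 346 and 294 against 249 CPM) and XBP1 (275 against 244 and 246 against 180.5 CPM), genes of secreting cells that the remaining cells carried too. Of 4 measured 0 were called. MS4A1, CD20 of mature B cells, had 5 and 20 UMIs in high-scoring and 14 and 40 in the far larger total of remaining cells. Their part in the results was not tested. B-cell precursor markers were present. CD79B, of the receptor complex, was at 611 against 491 and 726 against 492 CPM, and PAX5, the B-lineage factor, at 102 against 88.3 and 119.8 against 99.2 CPM. CD79A was near level, at 173 against 163 and 137 against 134 CPM. VPREB1 and IGLL1, given above, were below 0 in both libraries, with log2 ratios of -0.079 and -0.043 and of -0.42 and -0.49.

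The choice takes 10% of each library, so frequency was compared at a common limit. Above 1085 CPM of the 9 genes lay 164 cells of LUC control, 8.77% (7.53 to 10.1), and 250 of ETV6-RUNX1, 11.03% (9.77 to 12.4). The difference was 2.26 percentage points. On thinned cells the shares were 9.69% and 10.3%, a difference of 0.593 percentage points, and without COL9A3 7.86% and 11.8%, a difference of 3.92.

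The scored genes' levels in the high-scoring cells of each library follow from the choice, which had its own limit in each, and are given as a description. ARPP21 was higher in ETV6-RUNX1 than in LUC control, at 392 against 232 CPM (log2 0.76), with 0.46 in remaining cells. ARID5B was at 78.2 against 48.9 CPM (log2 0.68), with 0.399 in remaining cells, and PNRC1 at 99.7 against 62.6 CPM (log2 0.67), with 0.064. CLEC14A was lower, at 87.1 against 121 CPM (log2 -0.48), with -0.56 in remaining cells.
SPINK4 was at 98.7 against 126 CPM (log2 -0.35), with -0.25 in remaining cells, and TTN at 94.8 against 120.2 CPM (log2 -0.34), with 0.072. ZNF608 was at 84.9 against 65.5 CPM (log2 0.37), with 0.25, ID4 at 68.4 against 61.2 CPM (log2 0.16), with 0.018, and COL9A3 at 579 against 593 CPM (log2 -0.034), with 0.047. Whether a ratio in high-scoring cells differs from that in remaining cells was not tested.

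Of 5945 other genes at 10 CPM or more over all kept cells of at least one of the libraries, 176 (2.96%) were at least 1.5-fold higher and 223 (3.75%) lower in ETV6-RUNX1 high-scoring cells. In remaining cells 12 (0.202%) were higher and 39 (0.656%) lower, of which 9 and 20 were shared. High-scoring cells sum to 2762611 and 2837446 UMIs and remaining cells to 39999577 and 41104090, so their ratios carry more counting error.
LAT2, an adaptor of immune receptor signalling, had the lowest ratio, at 10.9 against 38.4 CPM (log2 -1.81, interval -2.44 to -1.22), and was at -1.796 in remaining cells. FAM129C was at 14.4 against 44.2 CPM (log2 -1.61, interval -2.16 to -1.09), with -1.26 in remaining cells, and RASD1, a RAS-related protein, at 3.88 against 12.3 CPM (log2 -1.67, interval -2.796 to -0.65), with -0.95. SNAPC2, of the complex that starts small nuclear RNA transcription, was at 10.9 against 24.3 CPM (log2 -1.15, interval -1.81 to -0.52), but at -0.21 in remaining cells. The 2 others of the 6 lowest were ATP13A2, a lysosomal transporter, at 2.82 against 6.88 CPM (log2 -1.29, interval -2.69 to -0.028), and KB-208E9.1, at 16.6 against 38.4 CPM (log2 -1.21, interval -1.74 to -0.703).
Of the 6 highest, CYB5D2 was at 14.8 against 4.34 CPM (log2 1.77, interval 0.82 to 2.83), with 0.75 in remaining cells, and CD99, a surface antigen of leukemic blasts, at 21.9 against 7.96 CPM (log2 1.46, interval 0.73 to 2.23), with 0.71. BCAS4 was at 32.8 against 11.9 CPM (log2 1.46, interval 0.87 to 2.08), with 0.95. GRAP, an adaptor of RAS signalling with a near-identical copy, was at 33.5 against 13.03 CPM (log2 1.36, interval 0.79 to 1.957), with 0.47, and OXR1, of oxidation resistance, at 16.9 against 6.88 CPM (log2 1.298, interval 0.51 to 2.15), with 0.043.
HIST1H2BC was at 10.6 against 4.71 CPM (log2 1.17, interval 0.19 to 2.23), on few UMIs, and lost that direction when COL9A3 was left out of the score. MHC class II genes, which present antigen, had a median of 0.62 in high-scoring cells and 0.15 in remaining cells. HLA-DRA was at 998 against 651 CPM (log2 0.62, interval 0.53 to 0.703), and CD74, the invariant chain, at 1520.0 against 1031 CPM (log2 0.56, interval 0.49 to 0.63).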

How the data were processed

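UMI counts for each gene in each barcode, 1 matrix per library, are the deposited values. The authors made these counts with Cell Ranger 3.0.2 and build hg19, per the submitters' processing notes; how reads of overlapping or near-identical genes were counted was not given in the sources used here. The cells, the 9 genes and the lists were chosen with earlier results of these data known. UMIs were summed over high-scoring and over remaining cells and scaled to CPM, with exact 95% Poisson intervals on ratios. Intervals cover counting error only and leave out the spread between cells. Genes were called by size (1.5-fold, floor of 10 CPM), with no test. The sums were checked on simulated Poisson counts without spread between cells, so the check says nothing of that spread. Of genes simulated at 2-fold 100% were called in both libraries, at 0.5-fold 88% and at 1.5-fold 32%. Named genes are the 9 scored; the 12 highest and 12 lowest called genes (by the smaller of both libraries' absolute log2 ratios, intervals leaving out 0); 6 each way between libraries; and up to 3 per list with the largest mean ratio. Called members of short lists (PDCD4, FOXP1, POU2AF1, SPTBN1, HIST1H2AH) and markers were named after their values were seen. The 48 lists held 1251 symbols, 22 of them unmatched. Phases came from scanpy 1.11.5 on cells thinned to 8700 UMIs. Clusters used 2000 variable genes, 30 components, 15 neighbours and Leiden resolution 0.5. Doublets called by Scrublet were kept, and left out as an alternative. Shares have Clopper-Pearson intervals. TMM factors came from edgeR 4.0.16, for scaling only. Promoter windows are the first listed per gene. Alternatives were other scalings, floors, folds, score limits, scores, cell filters and phase weights; weighting remaining cells to like depth was added after seeing the data.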

Additional observations from a re-analysis of the deposited data

Results flagged for a closer look

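MHC class II genes had medians of opposite sign in the libraries: their median log2 ratio of high-scoring over remaining cells was -0.21 in LUC control and 0.37 in ETV6-RUNX1. Of 9 genes, 1 was above 0 in LUC control and 9 in ETV6-RUNX1, against 2432 and 2530 of all 5640 genes. CD74 was at 1031 against 1056 and 1520.0 against 1171 CPM, with log2 ratios of -0.035 (95% interval -0.0899 to 0.0201) and 0.38 (0.33 to 0.42), and HLA-DRA at 651 against 678 and 998 against 774 CPM, with -0.0599 (95% interval -0.13 to 0.0090) and 0.37 (0.31 to 0.42); both LUC control intervals take in 0. Of genes outside this list, 4 had intervals on opposite sides of 0 in LUC control and ETV6-RUNX1: EMB (-0.58 and 0.47), FAF2 (-0.48 and 0.44), VPS51 (-0.701 and 0.39) and GRAP (-0.51 and 0.39). With 1 library per construct these differences were not tested.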

How the results depend on the processing

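Of the values that answer a comparison, recomputed under each alternative, 54 stayed within 1.5 times or within error and 47 moved; of values of single genes 3350 stayed, 802 moved and 6 reversed. The higher and lower genes, 89 and 78, were 428 and 221 at a floor of 1 CPM, 17 and 30 at 50 CPM, 9 and 3 at 2-fold, 343 and 504 at a fold limit of 5/4, 169 and 223 for the top 5% of cells, 42 and 3 for the top 20%, and 33 and 5 with the score on thinned cells. The lower genes also moved to 128 with TMM, 127 with cells weighted equally, 51 with the 9 genes at equal weight, 44 without COL9A3, 29 with a stricter cell filter, 29 with phases at equal weight and 42 with remaining cells weighted to like depth, an alternative chosen after seeing the data. Between libraries, 176 and 223 became 1120 and 1185 at 1 CPM, 10 and 20 at 50 CPM, 20 and 18 at 2-fold, 645 and 867 at the lower fold, 486 and 526 for the top 5%, 40 and 73 for the top 20% and 363 and 435 with cells chosen on 1 of 2 random parts of their UMIs; the higher genes were 97 with the thinned score. G1 calls were 64.1% and 71.6% for the top 5% and 30.8% and 37.4% for the top 20%. S calls were 25% and 16.4% for the top 5%, and 33.7% for the top 20% of ETV6-RUNX1. G2/M calls were 10.9% and 11.9% for the top 5%, and 32.01% for the top 20% of LUC control. The difference above a common limit was 4.86 percentage points for the top 20%. Log2 ratios reversed for HMMR (0.073) and PLK1 (0.23) in LUC control and HIST2H2AC (0.035) in ETV6-RUNX1 with phases at equal weight, KIF4A in LUC control on the UMI parts (0.11), TFDP1 in ETV6-RUNX1 with equal gene weights (-0.23) and HIST1H2BC between libraries without COL9A3 (-0.026). The cause was not tested. Phases at equal weight also left out the cells too shallow for thinning. Of cells chosen on thinned counts 64.2% and 65.7%, and of those chosen without COL9A3 67.4% and 69.6%, were high-scoring in the first choice. No paired analysis was possible because there is 1 library per construct, and leaving out a replicate was not possible for the same reason.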
